A study of Mus musculus with 14 samples.

Results

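Cadherins and protocadherins are calcium-dependent adhesion molecules that span the cell membrane, and their genes were followed here through the spinal cord transcriptome and through the RNAs bound by the splicing factor NOVA. Members were taken by name: every gene in the RNA-seq expression tables whose symbol starts with Cdh and a digit, or with Pcdh, apart from the endothelial gene Cdh5. This gave 94 of 19215 genes, and 17 of the 13189 cassette exons in the splicing tables belonged to them. In the CLIP libraries, which were counted on GENCODE vM1 gene models of the mouse mm9 genome, the 94 genes fell on 61 models. That annotation describes the whole alpha protocadherin cluster as 1 gene and the whole gamma cluster as 1 gene, so tags of individual alpha and gamma isoforms could not be counted separately, and a nested Pcdha3 model received no tag of its own.

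3 kinds of sample were compared. MN CLIP came from hemizygous Chat:GFP-Nova C57BL/6 mice aged 3 months, which carry a bacterial artificial chromosome with the Chat promoter driving AcGFP-tagged NOVA2. Spinal cords of several mice were pooled for each replicate, and tagged NOVA was precipitated with a pair of monoclonal anti-GFP antibodies, in 4 replicates each of transgenic lines 6 and 17. The promoter is active in motoneurons (MNs) and also in other cholinergic neurons, and the tagged protein is added to endogenous NOVA. WSC CLIP used anti-Nova serum on whole spinal cord (WSC) of wild-type C57BL/6 mice, also aged 3 months, in 4 replicates, and therefore recovered endogenous NOVA from all cell types that express it. WSC RNA-seq used polyadenylated RNA from 1 male and 1 female mouse aged 12 weeks on a B6/SJL background, both of which carried the human SOD1 WT transgene of strain Tg(SOD1)2Gur/J, with no mouse lacking it. Cell type, antibody, tag, transgene, pooling and depth all differ between MN CLIP and WSC CLIP and cannot be told apart.

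The MN CLIP libraries held 65961 to 871804 tags and the WSC CLIP libraries 2213104 to 6095995. Of the tags assigned to a single gene, 35.6% to 48.0% lay on exons in MN CLIP, against 61.5% to 66.7% in WSC CLIP. MN replicates 1 and 2 carried a short barcode, and all other CLIP libraries a long one. The RNA-seq libraries held 72006019 (male) and 65625173 (female) reads in genes, of which members took 0.248% and 0.238%. Markers followed the labels. In RNA-seq all 4 astrocyte, all 4 oligodendrocyte and all 4 inhibitory-neuron markers reached 1 RPKM, while none of 3 Schwann cell, 3 sensory ganglion or 3 skeletal muscle markers did. In CLIP, 2 of 5 motoneuron markers were deep enough to test and both had more tags in MNs (Chat, 483 against 56.4 tags per 1000000 tags in genes, or CPM; Slc5a7, 1362 against 304), and Mnx1 had no tag in MN CLIP. All 4 inhibitory-neuron markers, the excitatory marker Slc17a6 and the 3 tested of 4 astrocyte markers had fewer. Of these, Slc32a1 had a mean of 20.3 CPM in MN, under the 38.5 CPM asked for before a gene was tested. Its direction may therefore have been set by that filter.

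Classical cadherins bind the same or a related cadherin on the neighbouring cell through their extracellular repeats and hold the actin cytoskeleton through catenins. The type II members are known for their combinatorial expression in spinal motor pools, where they take part in the sorting of motoneurons. The delta protocadherins are solitary genes with roles in axon outgrowth and synapse formation, whereas the clustered protocadherins arise from 3 gene arrays in which single neurons choose different promoters, which gives each neuron an identity used in self-recognition. NOVA proteins bind clusters of a 4-base motif, TCAT or TCAC, with the further forms CCAT as well as CCAC in DNA letters, regulate the inclusion of nearby exons and also bind 3′ UTRs.

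Most members were expressed in spinal cord. A mean of at least 1 RPKM (reads per kilobase of exon per 1000000 reads) was reached by 81 of 94 members (86.2%), against 62.1% of all 19215 genes. At 2 RPKM the shares were 57.4% and 56.3%, so many members lay just above 1 RPKM. The 81 came from every role group: 3 of 5 type I cadherins, all 12 type II cadherins, 1 of 5 atypical cadherins, all 4 delta-1 and all 5 delta-2 protocadherins, 2 of 3 other solitary protocadherins, 13 of 14 alpha, 19 of 22 beta and 21 of 22 gamma protocadherins. Pcdh21 (now Cdhr1) and Pcdh24 (now Cdhr2), which are placed in no role group, had means of 1.21 and 0.23 RPKM. All levels in this account are per length of exon, but reads of whole tissue cannot tell fewer cells of a type from less RNA per cell.

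Among type I cadherins, Cdh2 (N-cadherin, the main adhesion cadherin of neural tissue) stood highest at 28.5 RPKM in the male and 25.1 RPKM in the female library. Cdh4 (R-cadherin) had 2.78 and 2.47 RPKM, and Cdh3 (P-cadherin) 1.36 and 0.92 RPKM. Cdh15 (M-cadherin of muscle) and Cdh1 (E-cadherin of epithelia) stayed under 1 RPKM, with means of 0.52 and 0.07. The order Cdh2, Cdh4, Cdh3, Cdh15 was the same in both libraries.

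The type II cadherins spanned mean levels of 2.03 (Cdh9) to 19.8 RPKM. Cdh20 led with 18.9 and 20.8 RPKM. Cdh22 followed with 15.2 and 14.9 RPKM, and Cdh18 with 12.7 and 14.6 RPKM. Cdh22 and Cdh18 lay closer to each other than the Cdh18 libraries did, so their order is not settled. Cdh11 had 11.3 and 11.6 RPKM, next to Cdh8 with 11.2 and 9.84 RPKM. The remaining 7 had means of 2.03 to 7.62 RPKM.

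Of the atypical cadherins, Cdh13 (T-cadherin, anchored to the membrane by a lipid and lacking a cytoplasmic tail) had 8.02 and 7.58 RPKM. Cdh23, a component of the tip links of hair cells, had 0.69 and 0.32 RPKM. Cdh17 and Cdh26 had means of 0.04 and 0.03 RPKM, and Cdh16 was at 0 reads in both libraries.

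Pcdh9 was the most highly expressed member, with 53.1 RPKM in the male and 61.1 RPKM in the female library. The other delta-1 protocadherins were Pcdh7 (22.1 and 23.8 RPKM), Pcdh1 (10.3 and 7.74 RPKM) and Pcdh11x (4.79 and 3.54 RPKM). This order held in both libraries. In the delta-2 group Pcdh17 had 13.8 and 13.4 RPKM and Pcdh10 had 10.2 and 9.06 RPKM. Pcdh19, an X-linked gene known for its link to epilepsy, had 4.25 and 3.28 RPKM, and Pcdh8 had 2.68 and 1.95 RPKM. Pcdh20 and Pcdh15, the second a tip-link partner of Cdh23, had means of 2.59 and 1.29 RPKM, and the endothelial Pcdh12 had 0.09.

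**Figure D1:**
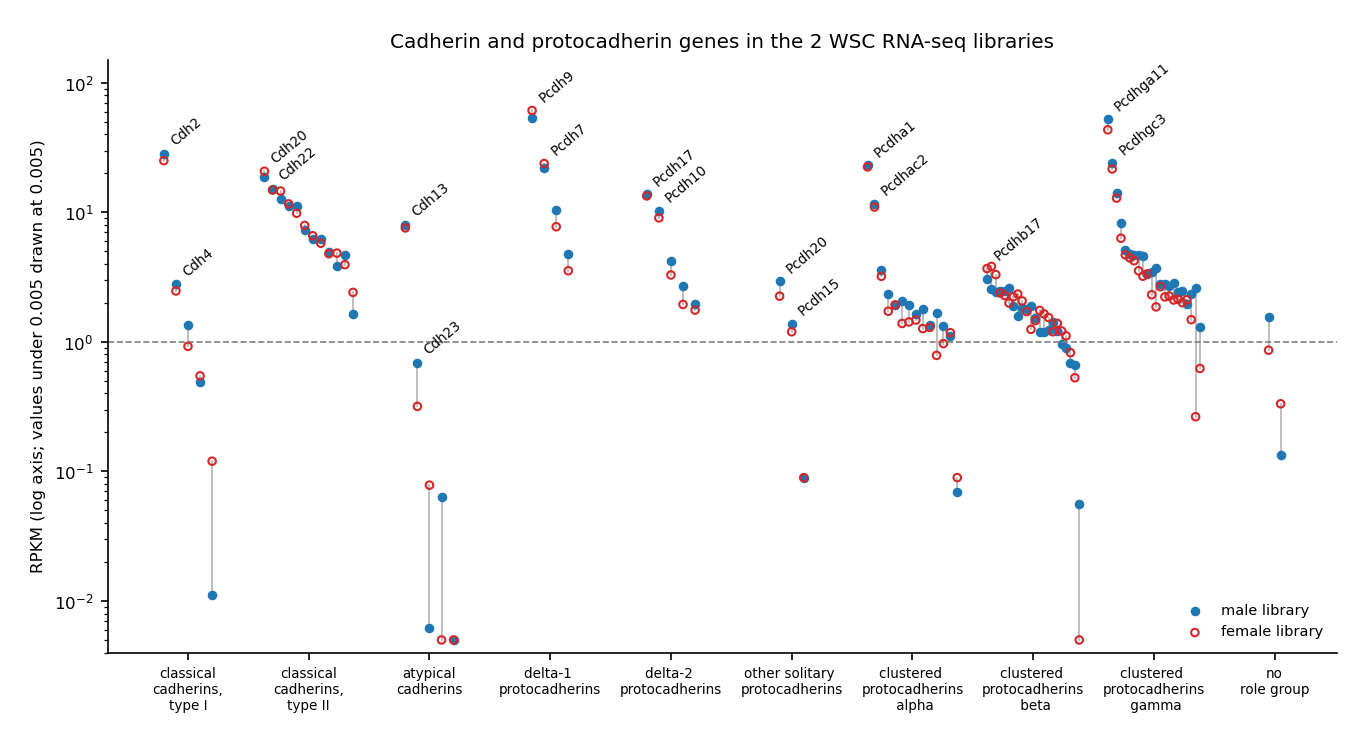
RPKM of the 94 member genes in the male (filled) and female (open) WSC RNA-seq libraries on a log axis, by role group, with a grey line joining the values of a gene and the dashed line at 1 RPKM. Pcdh9 and Pcdhga11 stand highest (means of 57.1 and 47.8 RPKM), the type II cadherins and delta protocadherins all lie above 1 RPKM, and most clustered protocadherins lie between 1 and 5 RPKM.

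In the alpha and gamma clusters a few members took most of the summed level. Pcdha1 had 23.1 and 22.4 RPKM and Pcdhac2 a mean of 11.3 RPKM, whereas Pcdha9 (mean 3.40), Pcdha11 (2.04) and the other alpha members lay lower and Pcdha8 at 0.08. In the gamma cluster Pcdhga11 had 52.1 and 43.4 RPKM, followed by Pcdhgc3 (23.9 and 21.6), Pcdhga12 (14.2 and 12.9) and Pcdhgc4 (8.21 and 6.32). All alpha transcripts share their constant 3′ exons and so do all gamma transcripts. The deposited exon lengths were 5100 nt for Pcdha1 against a median of 2391 nt over the alpha members, and 4566 nt for Pcdhga11 against a median of 2467.5 nt over the gamma members. Each was the longest of its cluster, so reads of the shared exons may be credited to these genes, and their levels are uncertain as levels of single isoforms. The beta genes, mostly made of a single exon of their own, had no such leader: Pcdhb17 (mean 3.37 RPKM), Pcdhb9 (3.20), Pcdhb20 (2.86) and Pcdhb7 (2.43) led 22 members whose median was 1.53 RPKM.

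Between the male and the female library, 6 of the 81 members with at least 1 RPKM were 1.5-fold or more apart, where the same held for 3.92% of all such genes. These were Pcdhgb8 (9.79-fold, male higher), Pcdha10 (2.14-fold), Pcdhgb5 (2.00-fold), Pcdh21 (1.81-fold), Pcdhga9 (1.59-fold) and Pcdhb6 (1.52-fold), all higher in the male. With 1 library of each sex there is no test, and sex cannot be told apart from the individual mouse.

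Of the 17 cassette exons of members, 7 had at least 10 junction reads in each RNA-seq library. 3 of the 7 had a mean inclusion rate between 10% and 90%, against 27.4% of all 9396 covered exons. These are the exons of Pcdh9, Pcdh7 and Pcdh19, all delta protocadherins and all multiples of 3 in length. Their sequences are given with 75 nt of intron on each side, in mm9 and on the strand of the gene, with the exon in capitals. They lie at chr14:93959695-93959796 (minus strand), chr5:58333406-58333501 (plus strand) and chrX:130216631-130216771 (minus strand).
Pcdh9 exon of 102 nt: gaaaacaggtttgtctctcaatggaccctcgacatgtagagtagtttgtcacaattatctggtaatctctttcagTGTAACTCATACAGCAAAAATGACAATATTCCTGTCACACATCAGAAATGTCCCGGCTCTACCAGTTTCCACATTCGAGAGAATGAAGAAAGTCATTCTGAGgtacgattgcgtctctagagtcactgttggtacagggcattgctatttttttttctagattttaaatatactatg
Pcdh7 exon of 96 nt: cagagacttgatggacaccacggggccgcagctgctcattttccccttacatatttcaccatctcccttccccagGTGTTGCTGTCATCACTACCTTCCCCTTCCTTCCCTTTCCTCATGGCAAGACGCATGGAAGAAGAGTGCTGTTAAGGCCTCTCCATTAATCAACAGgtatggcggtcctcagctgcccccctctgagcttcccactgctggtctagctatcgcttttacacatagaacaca
Pcdh19 exon of 141 nt: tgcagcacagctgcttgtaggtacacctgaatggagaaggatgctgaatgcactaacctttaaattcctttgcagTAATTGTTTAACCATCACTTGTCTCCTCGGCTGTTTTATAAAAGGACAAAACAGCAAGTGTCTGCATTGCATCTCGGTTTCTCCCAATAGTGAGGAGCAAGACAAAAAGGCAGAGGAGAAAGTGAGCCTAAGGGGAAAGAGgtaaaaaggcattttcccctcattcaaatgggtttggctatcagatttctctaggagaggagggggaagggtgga

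The Pcdh9 exon, annotated as coding, had an inclusion rate of 25.0% in the male mouse, with 56 and 52 reads on its inclusion junctions and 162 skipping reads (19.7% to 31.2%, 95% Wilson interval). In the female mouse the rate was 28.0%, from 80 and 39 inclusion reads and 153 skipping reads (22.4% to 34.4%). The Pcdh7 exon, which is not an exon in GENCODE vM1, was included in 15.5% (7.06% to 30.7%) and 9.52% (2.65% to 28.9%). The Pcdh19 coding exon was included in 4.76% (0.85% to 22.7%) and 15.6% (5.85% to 35.3%). The intervals of both libraries overlapped for each exon, and they cover counting error only. When the deposited inclusion counts were used, which add reads in the exon body, the rates were 48.7% and 52.6% for Pcdh9, 26.8% and 24.0% for Pcdh7, and 9.09% and 36.7% for Pcdh19.

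The other covered exons were near one end of the scale. The Cdh8 exon of 122 nt was included in 95.3% and 100% of transcripts, the Cdh11 exon of 118 nt in the 5′ UTR in 100% and 92.6%, and the Pcdh15 exon of 111 nt in 100% in both libraries. The Cdh7 exon of 156 nt had no inclusion junction read against 17 and 12 skipping reads, although 40 and 52 reads lay in its body, which give 70.2% and 81.2% by the deposited counts. Junction and body reads therefore gave opposite readings of this exon. Short exons of Cdh4 (24 nt) and Pcdh15 (21 nt) had skipping reads only, 22 and 5 for Cdh4 and 20 and 9 for Pcdh15, and were not covered in both libraries.

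None of the 7 exons passed Benjamini-Hochberg adjustment in a two-sided Fisher's exact test between the male and female library, where 4.26% of all covered exons did. The Pcdh19 exon was the only one under 0.05 before adjustment (exact p = 0.0277, adjusted p = 0.30). This test compares these libraries, not the sexes.

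**Figure D2:**
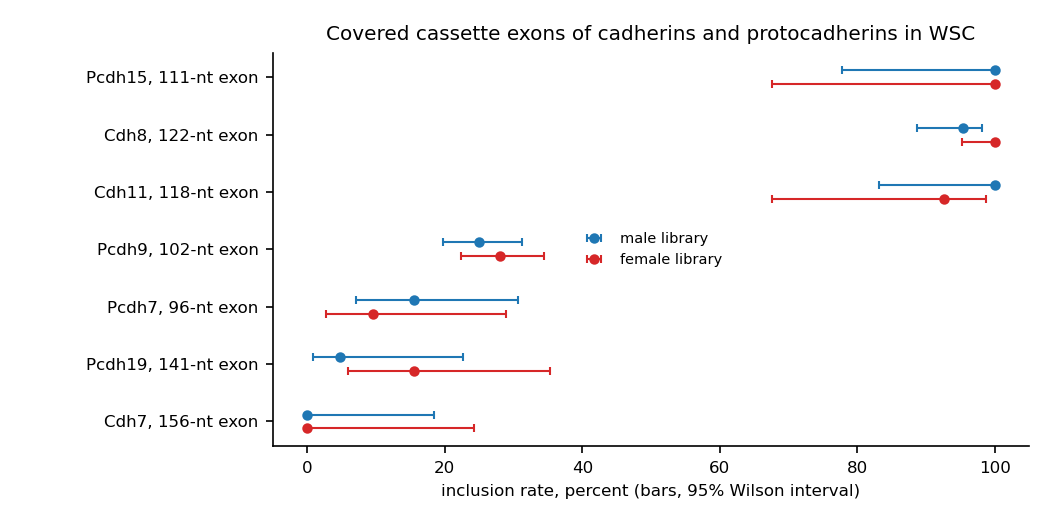
Inclusion rate in percent of the 7 covered cassette exons of members in the male (blue) and female (red) WSC RNA-seq library, from junction reads, with 95% Wilson intervals as bars. The exons of Pcdh9, Pcdh7 and Pcdh19 lie between 4.76% and 28.0%, those of Cdh8, Cdh11 and Pcdh15 above 90%, and the Cdh7 exon at 0.

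NOVA CLIP tags lay around several of these exons. Within 400 nt of the exon, the Pcdh7 exon had 14 MN and 103 WSC tags, the Cdh7 exon 4 and 85, the Cdh8 exon 1 and 60, and the Pcdh9 exon 5 and 38. The Pcdh19 exon had 0 and 4. The Pcdh7 tags came from 4 of the 8 MN libraries and from each WSC library (12 to 38), the Pcdh9 tags from 3 MN libraries and each WSC library (7 to 12). In the 200 nt upstream of the exon the NOVA motif occurred 7 times for Pcdh9, more often than for 93.1% of the 7640 covered exons that could be placed on the genome, whose median was 3 both upstream and downstream. Upstream counts were 5 for Pcdh7 and 0 for Pcdh19, and downstream counts 3, 3 and 1 for Pcdh9, Pcdh7 and Pcdh19. Motifs were searched on the strand of the transcript, overlapping matches counted, and a match is not a binding site by itself.

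The main comparison asked which members carried more or fewer NOVA tags in MNs than in whole cord. Tags anywhere in a gene, introns included, were tested with edgeR over 4639 genes at an adjusted p of at most 0.01. Of 61 member models, 23 were deep enough to be tested. 9 had more tags in MNs, where 27.3% of all tested genes did, and 6 had fewer, where 28.9% did. The median log2 difference was 0.21 over the tested members and -0.019 over all genes. All 8 MN libraries lay above all 4 WSC libraries for 6 members (13.2% of all genes) and below them for 2 (16.1% of all genes). The 6 include Cdh6 and Cdh22, and the 2 include Pcdhb18. Each of these genes passed the filter on low counts mainly or only through the group where it is high. Their direction in these counts, in the calls and in the median was therefore largely set by the filter. By role group, 2 of 2 tested type I and 4 of 9 tested type II cadherins had more tags and none had fewer. These include Cdh6 and Cdh22, which passed the filter on low counts through MN libraries alone and could only be seen to have more, so the count of type II cadherins is no evidence of a direction. The 3 tested delta-2 protocadherins all had fewer, while delta-1 was split, with Pcdh9 and Pcdh7 higher and Pcdh11x lower. The 38 models that were not tested include 20 of the 22 beta genes, which are short and have few or no introns.

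The exon share of tags moved with these calls. Of the 21 tested members with tags both on and off exons, all 21 had a lower share of tags on exons in MN CLIP, as did 94.7% of the 4534 tested genes of that kind. The 6 members with fewer tags in MNs had 45.2% to 100% of their WSC tags on exons. Of the 9 with more, Cdh12 had 47.8% and the other 8 had 2.37% to 38.3%. Exonic and intronic tags were therefore also tested separately, each against the tags of the same kind in other genes, a comparison added for the intronic tags after the data had been seen. On exons, 11 members were deep enough, of which 1 had more tags (22.7% of all genes) and 3 had fewer (24.1%). Off exons, 22 were deep enough, of which 2 had more (12.8% of all genes) and 10 fewer (14.8%). These values stand beside each call below, and the part of the exon share in the calls cannot be told apart from that of the cells.

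**Figure D3:**
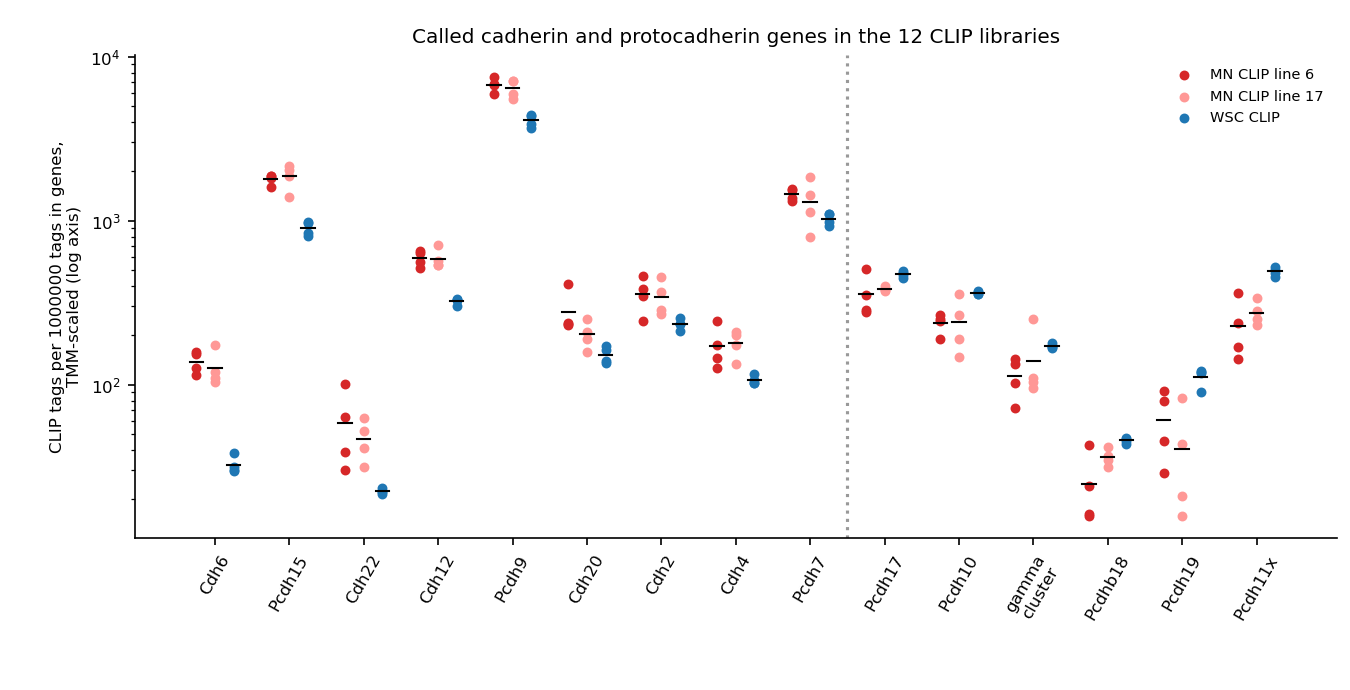
TMM-scaled CLIP tags per 1000000 tags in genes (log axis) of the 15 called members in each library of MN CLIP line 6 (dark red), MN CLIP line 17 (light red) and WSC CLIP (blue), with the group mean as a bar. Members left of the dotted line had more tags in MNs and those right of it fewer. The groups are fully apart for Cdh6, Pcdh15, Cdh22, Cdh12, Pcdh9, Cdh4, Pcdhb18 and Pcdh11x. Of these, Cdh6, Cdh22 and Pcdhb18 passed the filter on low counts mainly or only through the group where they are high.

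Cdh6, a type II cadherin, showed the largest difference of the tested members. Its scaled tags per 1000000 (CPM) were 104, 123 and 174 at the lowest, median and highest of the 8 MN libraries, against 29.8, 30.2, 38.5 and 31.6 in the 4 WSC libraries, so that the groups were far apart. The log2 difference was 2.05 (SE 0.15, adjusted p = 2.62e-11), and it was 1.31 when tags off exons were tested alone (adjusted p = 6.72e-09). Cdh6 passed the filter on low counts only through the MN libraries, since no WSC library reached it, and a gene that passes in this way had to differ in the direction seen. In the RNA of whole cord, Cdh6 was at 4.95 and 4.80 RPKM.

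Cdh12, another type II cadherin, had 517, 561 and 706 CPM at the lowest, median and highest MN library, against 301, 328, 331 and 330 CPM in WSC. No MN library overlapped a WSC library. The log2 difference was 0.91 (SE 0.09, adjusted p = 6.48e-09), with 1.42 on exons (SE 0.12) and 0.31 off exons, the latter at an adjusted p of 0.0107. Cdh12 was the 1 member with more tags on exons, and 38.2% of its MN and 43.0% of its WSC tags lay in the 3′ UTR.

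Cdh22 had 30.3, 46.7 and 100.6 CPM at the lowest, median and highest MN library and 23.6, 21.4, 22.0 and 22.4 CPM in WSC, with a log2 difference of 1.02 (SE 0.23, adjusted p = 0.000436). Counts were small, 2 to 27 tags for an MN library, and Cdh22 too passed the filter through the MN libraries alone. It was too shallow to be tested on or off exons separately.

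Cdh20, the type II cadherin with the highest level in RNA, had 158, 232 and 412 CPM in MN and 140, 135, 162 and 171 CPM in WSC. The groups overlapped at their edges, and the log2 difference was 0.68 (SE 0.12, adjusted p = 4.17e-05). Of its tags 98.3% in MN and 97.6% in WSC were intronic, and off exons the difference was -0.15 (SE 0.11), relative to intronic tags of other genes.

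Both tested type I cadherins had more tags in MNs. Cdh2 had 244, 356 and 460 CPM in MN against 213, 236, 254 and 233 CPM in WSC, a log2 difference of 0.63 (SE 0.11, adjusted p = 1.42e-05). Its share of tags in coding exons was 2.58% in MN and 19.1% in WSC, and off exons it differed by 0.057 (SE 0.094). Cdh4 had 127, 174 and 244 CPM in MN against 102, 116, 102 and 106 CPM in WSC, with no overlap, a log2 difference of 0.54 (SE 0.14, adjusted p = 0.00214) and -0.15 (SE 0.13) off exons. For neither gene did the intronic tags alone pass the test.

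5 tested type II cadherins were not called. Cdh18, the most heavily tagged type II gene in WSC CLIP, had 914, 1338 and 1667 CPM in MN against a WSC mean of 1173 ± 90.7 CPM (SD, n = 4). Cdh10 (log2 difference 0.29, adjusted p = 0.024), Cdh11 (0.21), Cdh7 (-0.13) and Cdh8 (-0.20) likewise lay within the spread of the MN libraries. Off exons all 5 had fewer tags in MNs, by -0.44 (Cdh10) to -0.99 (Cdh8). The atypical Cdh13 was not called over the whole gene (0.27, adjusted p = 0.0236) and had fewer tags off exons (-0.41).

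The delta-1 gene Pcdh9 was the most heavily tagged member. It had 5559, 6777 and 7509 CPM at the lowest, median and highest MN library and 3863, 3687, 4376 and 4423 CPM in WSC, without overlap. The log2 difference was 0.70 (SE 0.11, adjusted p = 8.38e-06). Introns held 99.4% of its MN and 96.8% of its WSC tags. Off exons the difference was -0.092 (SE 0.080), and on exons Pcdh9 had fewer tags in MNs (-0.88, SE 0.20), so its direction depended on which tags were counted.

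Pcdh7 had 794, 1399 and 1858 CPM in MN against 924, 977, 1094 and 1105 CPM in WSC, with overlap. Its log2 difference of 0.45 (SE 0.13, adjusted p = 0.00346) was the smallest of the 9 members with more tags. The call was lost without line 17 replicate 2 (0.35), without WSC replicate 1 (0.38) and without WSC replicate 2 (0.40), and off exons Pcdh7 had fewer tags in MNs (-0.35, SE 0.09). Pcdh15 had 1400, 1878 and 2162 CPM in MN against 806, 836, 969 and 985 CPM in WSC, without overlap. Its difference was 1.05 (SE 0.11, adjusted p = 1.36e-08), and 0.28 (SE 0.08) off exons, where it was again called. Of the 9 members with more tags, Pcdh15 and Cdh6 were also called off exons, and of these only Pcdh15 had WSC libraries past the filter in the test of all tags.

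Pcdh11x, the X-linked delta-1 member, had fewer tags in MNs by every count. It had 144, 245 and 365 CPM in MN against 482, 456, 524 and 501 CPM in WSC, with no overlap and a log2 difference of -0.97 (SE 0.11, adjusted p = 7.99e-08). On exons the difference was -1.17 (SE 0.15) and off exons -1.33 (SE 0.11). The coding share of its tags was 1.83% in MN and 20.7% in WSC, and the 3′ UTR share 20.4% and 24.5%.

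The 3 tested delta-2 genes had most of their WSC tags in 3′ UTRs, whereas the untested Pcdh18 had 52.1% of its 190 WSC tags in coding exons. Pcdh19 had 15.8, 44.5 and 91.0 CPM in MN and 89.7, 122, 120 and 118 CPM in WSC (log2 difference -0.83, SE 0.21, adjusted p = 0.000996), from 1 to 54 tags for an MN library. The call was lost without line 6 replicate 3 (-0.70), and without line 17 replicate 4 the difference was -1.40. On and off exons Pcdh19 was at -0.80 (SE 0.27) and -0.50 (SE 0.23), and neither passed.

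Pcdh10 had 148, 248 and 355 CPM in MN and 355, 355, 370 and 367 CPM in WSC (-0.56, SE 0.11, adjusted p = 8.05e-05). The 3′ UTR held 79.5% of its MN and 79.4% of its WSC tags. On exons, against the exonic tags of other genes, the difference was 0.14 (SE 0.11), and off exons -0.84 (SE 0.22). Pcdh17 had 277, 376 and 507 CPM in MN and 477, 448, 468 and 491 CPM in WSC (-0.40, SE 0.10, adjusted p = 0.00106), with -0.00 (SE 0.13) on exons and 0.13 (SE 0.16) off exons. Its call was lost without line 6 replicate 3 (-0.33). For Pcdh10 and Pcdh17 the difference over the whole gene was thus not seen on the exons that hold most of their tags.

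The alpha and gamma cluster models were tagged in every CLIP library, whereas the beta genes Pcdhb1, Pcdhb2 and Pcdhb12 had 0 tags in MN CLIP. The alpha cluster had 190, 266 and 345 CPM in MN against 260, 281, 291 and 281 CPM in WSC and was not called (-0.071, SE 0.10). On exons it had fewer tags in MNs (-0.63, SE 0.18), and its 3′ UTR share was 14.9% in MN and 34.9% in WSC. The gamma cluster had 71.8, 107 and 251 CPM in MN against 171, 173, 168 and 180 CPM in WSC, with a difference of -0.61 (SE 0.14, adjusted p = 0.000652) that was -0.16 (SE 0.24) on exons and -1.19 (SE 0.16) off exons. Its call was lost without line 17 replicate 4 (-0.44) and with a block for replicate number.

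Of the beta genes, Pcdhb18 had 15.9, 33.1 and 43.1 CPM in MN and 47.6, 46.9, 45.4 and 43.6 CPM in WSC (-0.71, SE 0.21, adjusted p = 0.00495), from 1 to 24 tags for an MN library. It passed the filter mainly through the WSC libraries (4, against 1 MN library), and a gene that passes so is bound to differ in this direction. The difference was -0.31 (adjusted p = 0.36) in line 17 alone and -1.09 (adjusted p = 0.012) in line 6 alone. The call was lost without line 6 replicate 4 (-0.74, adjusted p = 0.0104) and with a block for replicate number. In 6 of the 12 fits that leave out 1 library, Pcdhb18 did not pass the filter. Pcdhb16 was tested and not called (-0.44, adjusted p = 0.0406). The lines 6 and 17 were also compared with each other: none of the 4639 genes was called by edgeR, and no tested member had an unadjusted p under 0.05.

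**Figure D4:**
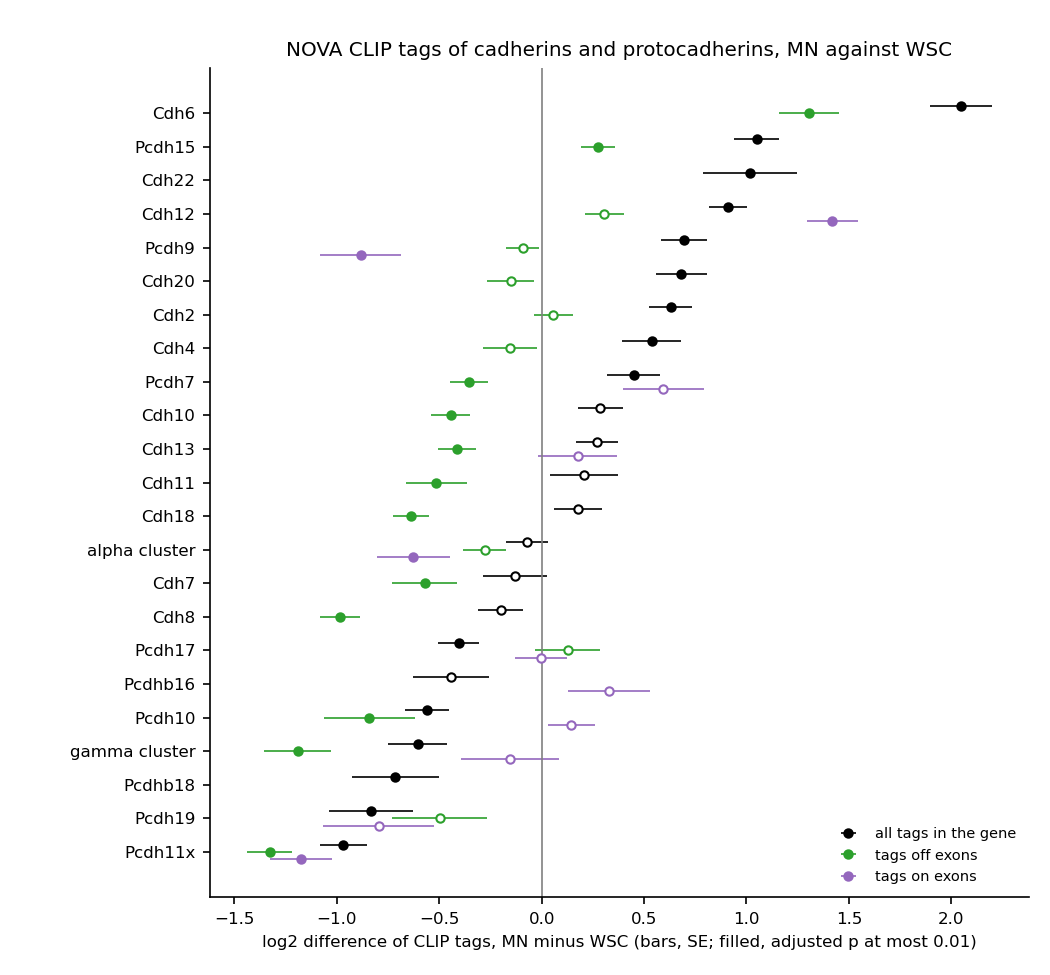
Log2 difference of CLIP tags (MN minus WSC) with its SE for the 23 tested members, from all tags in the gene (black), tags off exons (green) and tags on exons (purple). Filled points have an adjusted p of at most 0.01. Cdh6, Pcdh15, Cdh12 and Cdh2 lie right of 0 for every count tested, and Pcdh11x, Pcdh19 and the gamma cluster left of 0. The called members Pcdh9, Pcdh7, Cdh20, Cdh4, Pcdh10 and Pcdh17 change side.

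The tags of each gene were not spread evenly. The highest position in the WSC libraries lay in an intron for 10 of the 23 tested members, in a 3′ UTR for 8 and in a coding exon for 5. In 12 of the 23 the highest MN position lay within 30 nt of it, which held for 46.0% of 4001 genes with an MN height of at least 5 tags. Every one of the 23 windows of 61 nt around the WSC position held at least 1 NOVA motif, as did 98.0% of 4639 such windows of all tested genes. At least 6 motifs were found in 4 of 23 (Pcdh9, Pcdh7, Cdh4 and Pcdh10), against 5.09% of all windows.

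Windows of some of the called members are shown with the motif in capitals (61 nt in introns, 30 nt in 3′ UTRs, mm9, strand of the gene). The windows shown give the sequence under the highest WSC position, with the 4-base motif 1 to 9 times in each. They are chr14:94272316-94272376 (minus) in Pcdh9, chr5:58327349-58327409 (plus) in Pcdh7, chr2:179296607-179296667 (plus) in Cdh4, chr10:72760948-72761008 (plus) in Pcdh15 and chr15:13089144-13089204 (minus) in Cdh6, all intronic. Those in 3′ UTRs are chr3:45225541-45225570 (plus) in Pcdh10, chr14:84935906-84935935 (plus) in Pcdh17, chr15:21518117-21518146 (plus) in Cdh12, chrX:118023371-118023400 (plus) in Pcdh11x and chrX:130120539-130120568 (minus) in Pcdh19.
Pcdh9 intron: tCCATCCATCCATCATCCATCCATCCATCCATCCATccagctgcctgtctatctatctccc
Pcdh7 intron: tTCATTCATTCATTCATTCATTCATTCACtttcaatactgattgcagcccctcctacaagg
Cdh4 intron: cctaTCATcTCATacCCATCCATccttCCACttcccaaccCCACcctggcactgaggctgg
Pcdh15 intron: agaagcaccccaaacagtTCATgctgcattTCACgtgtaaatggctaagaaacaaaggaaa
Cdh6 intron: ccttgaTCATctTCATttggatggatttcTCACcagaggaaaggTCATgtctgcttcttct
Pcdh10 3′ UTR: cattcTCACcTCACaagcaatggttgtact
Pcdh17 3′ UTR: ataaCCACtttagtgacatctcaagcagtg
Cdh12 3′ UTR: TCACttataattgCCATgctagagaagaaa
Pcdh11x 3′ UTR: tacaaaagataacttTCACtcctgagtaaa
Pcdh19 3′ UTR: ttcctattctgtactgaatactaccTCATg

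In the Pcdh9 and Pcdh7 introns the motif stands in tandem, 9 and 7 times in 61 nt. The Pcdh9 position was covered by 1362 WSC tags at its highest base, in every WSC library (234 to 435 tags) and by 111 tags from all 8 MN libraries. At Pcdh7, 372 WSC tags and 39 tags from 6 MN libraries overlapped the position. The WSC position of Cdh4 had 1 MN tag and that of Cdh6 had 4. The highest MN positions of Cdh4 and Cdh6 lay 76586 and 26236 nt away, so these windows do not show where their MN tags were highest.

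Single positions held 8.83% to 21.9% of the WSC tags in the 3 tested delta-2 genes. In Pcdh17 it was covered by 1443 tags, 21.9% of the WSC tags of the gene, and by 124 MN tags in 7 libraries. It covered 263 tags (16.3%) in Pcdh19, with 12 MN tags in 3 libraries, and 451 tags (8.83%) in Pcdh10, with 29 MN tags in 6 libraries. The Cdh12 position in the 3′ UTR had 366 WSC tags and 47 MN tags, and every MN library contributed. Scaled to depth, the Cdh12 position was at 25.7 ± 14.1 CPM in MN (SD, n = 8) and 25.7 ± 2.72 CPM in WSC (n = 4), and the Pcdh17 position at 74.4 ± 43.8 and 104 ± 6.37 CPM. In both genes these values differed by less than the spread between the MN libraries. At Pcdh11x the values were 5.64 ± 6.52 and 24.0 ± 2.30 CPM, and at Pcdh19 3.51 ± 5.13 and 18.4 ± 5.51 CPM. These positions were chosen on the WSC tags, so no test was made.

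**Figure D5:**
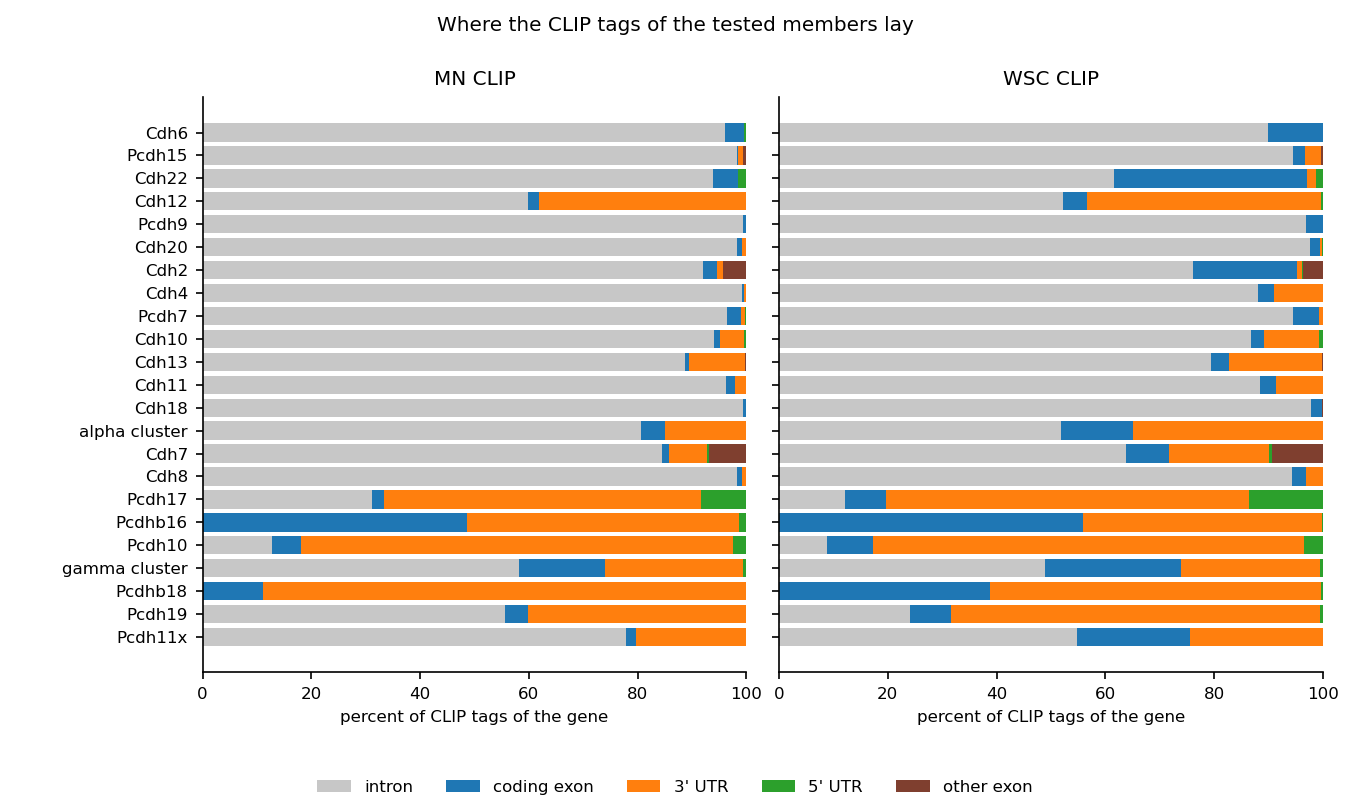
Percent of the CLIP tags of each tested member in introns, coding exons, 3′ UTRs, 5′ UTRs and other exons, in MN CLIP (left) and WSC CLIP (right), tags of all libraries summed. Long cadherin genes and Pcdh9, Pcdh7 and Pcdh15 are mostly grey (intron) in both, Pcdh10 and Pcdh17 mostly orange (3′ UTR), and the coding share is smaller in MN CLIP for Cdh2 (2.58% against 19.1%) and Pcdh11x (1.83% against 20.7%).

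The intracellular partners of the cadherins were all expressed in the cord: each of the 9 catenins had at least 1 RPKM, from 5.66 (Arvcf) to 117 RPKM (Ctnnb1, beta-catenin). In CLIP, 6 of 9 were tested, of which 4 had more tags in MNs and 1 fewer, where 27.3% and 28.9% of all tested genes did. Ctnna2, the neuronal alpha-catenin that ties beta-catenin to actin, had 2293 CPM in MN and 1218 CPM in WSC on average (log2 difference 0.92, SE 0.11). Ctnnd1, Ctnnd2 and Pkp4 of the p120 family also had more (0.80, 0.57 and 0.38), and Ctnnb1 had fewer (-0.98, SE 0.17). Of 12 cytoplasmic partners and WAVE complex genes, 10 were tested, 5 had more (Cyfip1 1.21, Vcl 1.00, Ptk2 0.87, Fyn 0.55, Mllt4 0.48) and 2 fewer (Cyfip2 -1.30, Nckap1 -0.36), beside the same shares of all genes. The WSC means of Cyfip1 and Vcl (33.6 and 38.4 CPM) were under the 38.5 CPM that the filter asked for. Their direction may therefore have been set by the filter.

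Of 16 other cadherin superfamily genes, 8 were tested, 5 had fewer tags in MNs (28.9% of all genes; Fat1 -2.83, Celsr2 -1.95, Fat3 -0.75, Clstn1 -0.74, Clstn3 -0.45) and 2 had more (27.3% of all genes; Clstn2 0.70, Ret 0.65). The 16 include Cdhr1, which is the member Pcdh21 and was not tested. Fat1 had a mean of 30.3 CPM in MN, under the 38.5 CPM of the filter, so its direction may have been set by the filter. With 8 genes tested and no test of the list, no direction is read from these counts. Of 11 genes known to act on the promoters of the clustered protocadherins, 8 were tested and 2 had more tags (the cohesin subunit Stag1, 0.81, and Smchd1, 0.63), a share near that of all genes. Ctcf, which binds these promoters, was not called (-0.54, adjusted p = 0.0307). The share of exonic tags applies to these lists as to the members.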

How the data were processed

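HITS-CLIP was done on 8 MN and 4 WSC libraries and RNA-seq on 2 WSC libraries. The authors deposited unique CLIP tags as genome intervals (mm9, aligned with Novoalign per the labels), in which each line is 1 tag and was counted here once. The authors also deposited read counts and RPKM per gene and junction read counts per cassette exon, made from reads aligned with OLego and counted with Quantas (versions are not given in the sources used here). Members and gene lists were chosen with earlier results of these data known.

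Tags were assigned by their midpoint to GENCODE vM1 genes on the same strand, introns included, and tags in several genes were left out. Groups came from the sample labels. Genes with at least 38.5 tags per 1000000 tags in genes, before TMM scaling, in 4 libraries were tested. The test was that of edgeR 4.0.16 (TMM, glmQLFit and glmQLFTest, 1 mean for each line and WSC, mean of both lines minus WSC), R 4.3.3, at an adjusted p of at most 0.01. The CPM given in the text are tags per 1000000 tags in genes, scaled by TMM. Inclusion rates used the mean of both inclusion junction counts over that mean plus the skipping count, for exons covered by 10 or more junction reads per library, and deposited inclusion and skipping counts were tested with Fisher's exact test (scipy 1.17.1) at an adjusted p of at most 0.1. Each test was checked on simulated data. Alternatives were DESeq2 1.42.0, no filter, other tag assignments, each line alone, long-barcode libraries, a replicate block and leaving out each library, and, added after seeing the data, tags off exons and libraries thinned to the smallest.

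Named in full were the 4 members with the highest RPKM in each role group, all members called in CLIP and all exons of 10% to 90% inclusion; the other members are given by counts and ranges, and further genes named beside them were chosen after their values were seen. Each MN replicate is a pool of mice, and p-values measure the spread between these libraries, which may in part be technical. Replicates differed in depth: the smallest MN library holds 65961 tags, which gives wide counting error for genes of few tags.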

Additional observations from a re-analysis of the deposited data

Results flagged for a closer look

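Among 69 groups of 4 libraries (tested members by line 6, line 17 and WSC), 7 held a library far from the other 3, where chance alone flags about 1 in 20 groups. Cdh12 had 706 CPM in MN line 17 replicate 4, with the next at 564 CPM, and 301 CPM in WSC replicate 1, with the others at 328 to 331 CPM. Cdh20 had 412 CPM in line 6 replicate 2 (26 tags), with the others at 230 to 237 CPM. Cdh7 had 273 CPM in line 6 replicate 1 (19 tags), with the others at 111 to 127 CPM. The gamma cluster had 251 CPM in line 17 replicate 1 (12 tags), with the others at most at 110 CPM. In WSC, Pcdh19 had 89.7 CPM in replicate 1, with the others at 118 to 122 CPM, and Pcdhb16 had 59.7 CPM in replicate 3, with the others at 72.3 to 74.1 CPM.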

How the results depend on the processing

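The count of 9 members with more tags in MNs became 1 on exons, 2 off exons and 2 in libraries thinned to the smallest, 6 without the filter and 7 with long-barcode libraries only; the count of 6 with fewer became 3 on exons, 10 off exons, 1 in thinned libraries, 17 without the filter (where the median of all genes shifted to -0.59) and 14 with long-barcode libraries only. Not all of these were calls of the main test. Of its 6 members with fewer tags, 1 was called again on exons, 3 off exons, 0 in thinned libraries and 3 in line 17 alone. Of its 9 members with more tags, the same settings kept 1, 2, 2 and 6. Leaving out each library gave 8 to 10 members with more and 3 to 8 with fewer. Reversed signs appeared off exons for Cdh20 (-0.15), Cdh4 (-0.15), Pcdh17 (0.13), Pcdh7 (-0.35) and Pcdh9 (-0.092), and on exons for Pcdh10 (0.14) and Pcdh9 (-0.88). The cause was not tested. DESeq2 gave 8 and 6, each position counted once 9 and 5, tags in several genes 9 and 6, an adjusted p of at most 0.05 gave 11 and 7, line 6 alone 8 and 6, and line 17 alone 6 and 5.

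Same-numbered libraries of lines 6 and 17 had correlations of deviations of 0.04 to 0.19, and those of a line and WSC -0.069 to 0.061. Of 12 libraries, 7 correlated best with a library of their own number. The main test did not take the numbers to pair samples. Whether same-numbered libraries share a preparation was not tested. With a replicate block 9 members had more and 4 fewer tags; the gamma cluster (-0.56) and Pcdhb18 (-0.68) were no longer called. Members of at least 1 RPKM numbered 74 (each library), 86 (0.5 RPKM), 54 (2 RPKM) and 76 to 80 with 1 library. Exons of 10% to 90% inclusion were 3, or 4 by deposited counts, and 2 in each library alone. MN depth limits genes of few tags such as Pcdhb18, Pcdh19 and Cdh22.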

Other observations

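Pcdhgb8, a variable exon gene of the gamma cluster, was counted by 451 reads in the male library and by 42 in the female one (2.59 and 0.26 RPKM). The libraries were closer together for other gamma members such as Pcdhgb7 (4.65 and 3.54 RPKM) and Pcdhga9 (2.36 and 1.48 RPKM). Of the members with at least 1 RPKM, 19 of 21 gamma, 12 of 13 alpha and 7 of 19 beta members had the higher value in the male library. Among all genes of at least 1 RPKM, 6127 of 11940 did. The alpha members share constant 3′ exons and so do the gamma members, so their counts may not be separate observations. With 1 library of each sex these are values of individual mice.

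Of the 20 beta genes that were too shallow for the test, 16 had a position covered by at least 10 WSC tags. The highest such position held 15.2% (Pcdhb4) to 42.9% (Pcdhb9) of the WSC tags of the gene, and lay in a 3′ UTR for 11, in a coding exon for 4 and in another exon for 1. In Pcdhb9 it lay in the 3′ UTR and held 42.9% of 254 WSC tags, and the highest MN position lay 16 nt away on a height of 7 MN tags.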
